A study of Rattus norvegicus with 16 samples.

Results

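The subject is the genes of endoplasmic reticulum (ER) chaperones and of the heat shock proteins of the cytosol and mitochondria, in cultured rat hippocampal neurons exposed to hydroxyurea. The 36 genes, 22 of the ER and 14 of the cytosol or mitochondria, were listed by name, and the rule uses no measured value, although earlier results of these data were known when the list was made. Of these, 34 had at least 1 probe on the array, and 33 (20 ER, 13 cytosolic or mitochondrial) had a probe that could be tested. The array holds probes of 15715 named genes. The members have 44 of the 30367 probes of the array, of which 20349 were tested. No probe was matched to Manf, which encodes a neurotrophic factor resident in the ER, or to Dnajb1, a cytosolic J-domain partner of Hsp70. The single probe of Ern1, the ER sensor IRE1, was well above background on 0 of 16 arrays and was not tested.

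Primary neurons from the hippocampi of embryonic day 18 Sprague-Dawley rats received 5 µM hydroxyurea, an inhibitor of ribonucleotide reductase, for 2, 6, 12 or 24 h, or were left untreated. Each of the 5 groups had 3 samples. All groups share the strain, the culture and the change before treatment to a medium whose B27 supplement lacked antioxidants. The labels name no vehicle and no time in that medium for the untreated cultures. They put the age of the cultures at days 6 to 9 in one field and 6 to 8 in another, and they name hippocampal tissue as the source of RNA in the extraction field. The series title is about neuroprotection by the drug, and the comparisons here ask which chaperone transcripts differed during treatment.

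Chaperones bind unfolded proteins and help them fold. In the ER, the Hsp70 protein BiP and the Hsp90 protein GRP94 work with J-domain cofactors, lectin chaperones and disulfide isomerases. When unfolded proteins pile up there, the sensors IRE1, ATF6 and PERK raise transcription of these genes, in part through the factor XBP1, in what is called the unfolded protein response. In the cytosol, heat or oxidative damage activates the factor HSF1, which raises inducible Hsp70, the J protein DNAJB1, HSP110, BAG3 and the small heat shock proteins, while Hsc70 and Hsp90 beta are abundant at all times. Mitochondria have their own chaperonin pair, Hsp60 and Hsp10. Neurons express the constitutive chaperones strongly, and small heat shock proteins of the brain are known mainly from glia.

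Both responses act on short DNA elements near the start of these genes, and those elements are shown because they were more frequent in the promoters of their class than in all promoters, although many members lack them. In the RefSeq promoter windows of build GRCr8, which run from 250 bases before to 50 bases after the start of each transcript, 17 of the 22 ER genes had 18 windows and 11 of the 14 other genes had 11. The ER stress element, CCAAT, then 9 bases, then CCACG, was searched on both strands and was found in 7 of 18 ER windows (38.9%), in 0 of 11 windows of the cytosolic and mitochondrial genes, and in 0.0657% of all 33469 windows of the table. A second form, ATTGG, 1 base, CCACG, was found in 3 of 18 ER windows (16.7%), in 0 of 11 of the others, and in 0.0508% of all windows. Both forms end in CCACG, so they overlap in that part, which on its own was in 94.4% of ER windows, in 63.6% of the other members' windows and in 31.6% of all windows. CCAAT on its own, on either strand, was in 100% of ER windows, in 45.5% of the other members' windows and in 37.5% of all windows. These shares are a description and were not tested. The sequences follow 5′ to 3′ on the strand named, with the fixed ends of each element in capitals.
Hspa5, chr3:38452973-38452991, plus strand, upstream end 43 bases before the start: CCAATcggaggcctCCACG
Hsp90b1, chr7:23012451-23012469, minus strand, upstream end 176 bases before the start: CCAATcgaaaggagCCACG
Hsp90b1, chr7:23012347-23012365, plus strand, upstream end 72 bases before the start: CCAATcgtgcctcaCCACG
Xbp1, chr14:84604558-84604576, plus strand, upstream end 65 bases before the start: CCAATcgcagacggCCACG
Creld2, chr7:121789239-121789257, minus strand, upstream end 145 bases before the start: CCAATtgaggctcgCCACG
Dnajc3, chr15:102432534-102432552, plus strand, upstream end 133 bases before the start: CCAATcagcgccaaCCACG
Calr, chr19:40213135-40213153, minus strand, upstream end 232 bases before the start: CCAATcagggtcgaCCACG
Canx, chr10:35158069-35158087, minus strand, upstream end 230 bases before the start: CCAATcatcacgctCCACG
Herpud1, chr19:10614821-10614831, minus strand, upstream end 124 bases before the start: ATTGGgCCACG
Dnajb11, chr11:91672800-91672810, minus strand, upstream end 10 bases before the start: ATTGGcCCACG
Hyou1, chr8:53602694-53602704, minus strand, upstream end 188 bases before the start: ATTGGcCCACG
Hyou1, chr8:53602794-53602804, minus strand, upstream end 88 bases before the start: ATTGGgCCACG
The Hsp90b1 window held 2 elements of the first form, in opposite directions, and that of Hyou1 held 2 of the second form.

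The heat shock element was searched as 3 alternating repeats, GAA, TTC and GAA or TTC, GAA and TTC, each 2 bases from the next, on both strands. It was found in 5 of 11 windows of the cytosolic and mitochondrial members (45.5%), in 0 of 18 ER windows and in 0.798% of all windows. The repeats are in capitals.
Hspa8, chr8:50080301-50080313, plus strand, upstream end 213 bases before the start: GAAagTTCcaGAA
Hspa8, chr8:50080459-50080471, plus strand, upstream end 55 bases before the start: TTCtgGAAggTTC
Hsph1, chr12:10427332-10427344, plus strand, upstream end 36 bases before the start: TTCtgGAAagTTC
Hspe1, chr9:64084262-64084274, plus strand, upstream end 65 bases before the start: TTCtaGAAccTTC
Hspe1, chr9:64084267-64084279, plus strand, upstream end 60 bases before the start: GAAccTTCcgGAA
Dnaja1, chr5:60638413-60638425, plus strand, upstream end 10 bases after the start: GAActTTCcaGAA
Hspe1 and Hspd1 lie head to head on chromosome 9, so their windows overlap, and the 2 overlapping elements of Hspe1 are also those found for Hspd1. A match is a run of letters and not a measured binding site. The 250 bases before the start are shown for Hspa5 and for Hspe1 to place an element of each kind in its promoter, with the elements in capitals.
Hspa5, chr3:38452766-38453015, plus strand: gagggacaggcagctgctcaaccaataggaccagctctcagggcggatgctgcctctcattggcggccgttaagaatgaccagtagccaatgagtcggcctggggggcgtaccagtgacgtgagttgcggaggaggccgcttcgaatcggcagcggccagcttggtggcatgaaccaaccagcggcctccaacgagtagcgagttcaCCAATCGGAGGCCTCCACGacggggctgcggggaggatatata
Hspe1, chr9:64084077-64084326, plus strand: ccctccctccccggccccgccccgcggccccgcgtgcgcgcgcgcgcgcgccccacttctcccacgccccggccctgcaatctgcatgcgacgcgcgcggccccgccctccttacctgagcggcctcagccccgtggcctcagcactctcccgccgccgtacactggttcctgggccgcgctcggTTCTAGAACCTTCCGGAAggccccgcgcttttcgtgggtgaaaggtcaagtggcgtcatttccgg

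Before the values, some facts of the arrays bear on them. Each array had 64.6% to 70.4% of its probes well above background, and 0 spots were saturated. The median coefficient of variation between repeat spots of a probe was 17.1% on the array of 12 h replicate 3, against 3.08% to 7.86% on the other 15 arrays. Values without that sample are given for many, but not all, of the 12 h differences of the members. Limma's array weights, low for samples far from their group, were 0.167 for 12 h replicate 3 and 0.307 for 24 h replicate 2. Those of the other samples were 0.639 to 3.57. Values without 24 h replicate 2 are not given by themselves. For 24 h replicates 1 and 3, each sample's deposited scores fitted the scanner file of the other one. Both are in the same group, so means and tests are not touched, and replicate numbers below are those of the scanner files. Of the marker genes of neurons, 10 of 11 had a probe and all 10 were well above background on every array, as were all 9 astrocyte markers, 7 of 8 oligodendrocyte lineage markers and 4 of 7 microglia markers. The summed signal of the 9 astrocyte markers, relative to the 75th percentile of the array, was 144 to 152 at 2 h, 142 to 147 at 6 h, 148 to 177 at 12 h and 138 to 157 at 24 h, against 112 to 138 in untreated samples. That of the 10 neuronal markers was 96.0 to 128, 98.8 to 113, 106 to 139 and 105 to 114 at these times, against 105 to 114 in untreated samples. Taken gene by gene, 6, 7, 9 and 7 of the 9 astrocyte markers had a higher mean at 2, 6, 12 and 24 h than in untreated samples. Their median log2 differences were 0.11, 0.08, 0.16 and 0.08, and 0 had an adjusted p under 0.05 in limma. Over all probes, 49.9%, 47.6%, 55.5% and 54.3% had a higher mean at these times. Averaged over the 4 times, 8 of 9 astrocyte, 6 of 10 neuronal and 4 of 7 tested oligodendrocyte lineage markers had a higher mean. Of the tested microglia markers 4 of 4 had a higher mean, and of the fibroblast markers 0 of 5 had, against 50.7% of all probes. Whether the higher astrocyte marker values bear on the chaperone values was not tested. Values below are log2 signal relative to the 75th percentile of the array, so 0 is the level of that percentile. Nothing in the labels says that replicates were separate cultures, so p-values measure only how far these samples differ, which can be technical, and the number of arrays limits the precision.

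No ER chaperone transcript passed the test at any time, and the differences from untreated samples were small. Of the 20 ER genes tested, 9 had a higher mean at 2 h, 9 at 6 h, 8 at 12 h and 10 at 24 h than in untreated samples, and their median log2 differences were -0.01, -0.01, -0.05 and 0.00. Over all probes tested, 49.9%, 47.6%, 55.5% and 54.3% had a higher mean at these times, with medians of 0.00, -0.01, 0.02 and 0.01. The 13 cytosolic and mitochondrial genes had 6, 7, 6 and 7 higher means, with median differences of -0.01, 0.04, -0.01 and 0.02. Without 12 h replicate 3, the 12 h medians were -0.08 for ER genes and 0.00 for the others, the 33 differences at 12 h ran from -0.19 to 0.16, and 13 of them had moved by more than 0.1. With limma and Benjamini-Hochberg adjustment over all probes, 0 probes of members passed a threshold of 0.05 at any of 2, 6, 12 or 24 h, for the mean of the 4 times, between 24 h and 2 h, or in the F test among the 4 times. The same was true of all probes (0% called in each of these comparisons). In RNA of whole cultures, fewer cells of a type and less RNA per cell cannot be told apart.

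At an unadjusted p under 0.05, limma called 1.22% of all probes at 2 h, 0.767% at 6 h, 2.40% at 12 h and 0.875% at 24 h, 1.66% in the mean of the 4 times and 1.14% in the F test. Among the 33 genes, taking the brightest probe of each, 1 of these calls was made in a comparison with untreated samples, for Hsp90b1 at 12 h. A calibrated test calls a share of about 0.05 of all probes when nothing differs, so the shares over all probes were low. The reason was not tested. The SEs, intervals and adjusted p-values given here come from this same fit, which may therefore be conservative. In the F test, the smallest unadjusted p of a member in limma was 0.0912, for Sel1l. Averaged over the 4 times, 5 of 20 ER genes and 7 of 13 cytosolic or mitochondrial genes had a higher mean than untreated samples, against 50.7% of all probes.

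A 95% interval that lies within 1.5-fold of the untreated level on either side was found for 18 of 20 ER genes at 2 h, 20 of 20 at 6 h, 16 of 20 at 12 h and 20 of 20 at 24 h. For the cytosolic and mitochondrial genes these counts were 12, 12, 11 and 11 of 13. Over all probes the shares were 74.1%, 76.5%, 68.0% and 74.9%, and 86.2% for the mean of the 4 times, in which 32 of 33 members lay within that range. The genes with a wider interval were Atf6, Dnajb9 and Hspb1 at 2 h, Hspb1 at 6 h, Creld2, Dnaja1, Dnajb9, Hsp90b1, Hspb1 and Pdia4 at 12 h, and Hspb1 and Hspb8 at 24 h. The median SD within a group was 0.15 for ER genes and 0.18 for the others, against 0.20 over all probes.

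**Figure D1:**
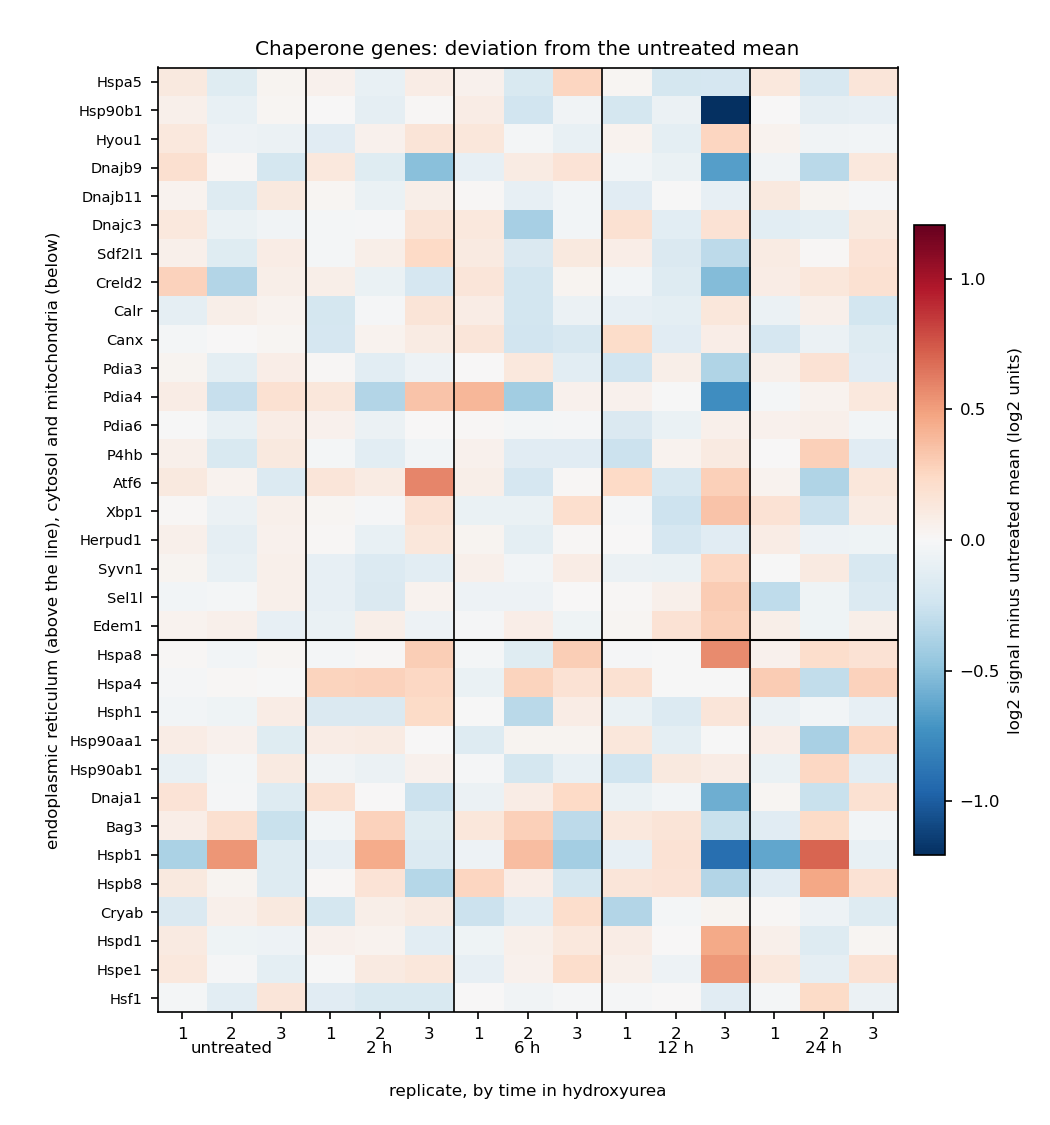
Deviation of each of the 33 tested genes from its untreated mean, in log2 units (colour, blue lower and red higher), for the 3 replicates of each group in columns; ER genes are above the black line. Most cells are pale, and the darkest cell is Hsp90b1 in 12 h replicate 3, which read 0.28 against an untreated mean of 1.48.

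In the ER lumen, Hspa5 (NM_013083, chromosome 3) encodes BiP, the most abundant ER chaperone and a standard readout of ER stress. Its log2 signal was 3.26, 2.99 and 3.17 in untreated samples, 3.19, 3.05 and 3.23 at 2 h, 3.19, 2.96 and 3.40 at 6 h, 3.16, 2.93 and 2.94 at 12 h, and 3.27, 2.95 and 3.29 at 24 h. All 4 treated groups overlapped the untreated one, and its differences at 2, 6, 12 and 24 h were 0.02, 0.04, -0.13 and 0.03 (SE 0.14 each). The 95% interval ran from -0.28 to 0.31 at 2 h and from -0.27 to 0.33 at 24 h, so the upper limit was 1.24-fold at 2 h and 1.25-fold at 24 h.

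Hsp90b1 (NM_001012197, chromosome 7) encodes GRP94, the ER form of Hsp90. It read 1.55, 1.40 and 1.51 in untreated samples, 1.49, 1.38 and 1.5 at 2 h, 1.58, 1.26 and 1.44 at 6 h, 1.27, 1.42 and 0.28 at 12 h, and 1.49, 1.38 and 1.39 at 24 h. In 14 of the 15 samples it lay between 1.26 and 1.58, and 12 h replicate 3 alone was far below. The 12 h group therefore overlapped the untreated one (1.27, 1.42 and 0.28, against 1.55, 1.40 and 1.51), with a difference of -0.49 (SE 0.22), a limma unadjusted p of 0.0422 and an adjusted p of 0.996. This probe is printed as 2 spots: on the array of 12 h replicate 3 they read 1.30 and -0.74, and neither carried an outlier flag, whereas the spots of the other 12 h arrays and of the untreated arrays read 1.19 to 1.61. Without 12 h replicate 3 the difference was -0.14, and with arrays weighted by their quality it was -0.15. At the other times the gene differed by -0.03, -0.06 and -0.06.

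The cofactors of BiP did not pass the test either. Dnajb9 (NM_012699), a J-domain protein that restrains IRE1, read -1.37, -1.55 and -1.78 in untreated samples, -1.44, -1.71 and -2.07 at 2 h, -1.67, -1.47 and -1.40 at 6 h, -1.60, -1.65 and -2.23 at 12 h, and -1.61, -1.89 and -1.44 at 24 h. Its spread within groups was wide and its differences were -0.17, 0.05, -0.26 and -0.08 (SE 0.20), and the 12 h difference was -0.06 without 12 h replicate 3. Sdf2l1 (NM_001109433), which keeps the J proteins of the ER lumen in complex with BiP, read 0.54, 0.34 and 0.57 in untreated samples, 0.46, 0.55 and 0.72 at 2 h, 0.59, 0.31 and 0.60 at 6 h, 0.56, 0.31 and 0.17 at 12 h, and 0.58, 0.50 and 0.65 at 24 h. Its differences were 0.10, 0.02, -0.14 and 0.09 (SE 0.13), and -0.05 at 12 h without 12 h replicate 3, with overlap between each treated group and the untreated one. A second, dimmer probe of Sdf2l1 gave 0.11, 0.07, -0.28 and -0.25 (SE 0.24 each), so the probes differed in sign at 24 h.

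Creld2 (NM_001037208) encodes an ER protein with disulfide isomerase activity that is secreted under ER stress. It read -0.93, -1.56 and -1.14 in untreated samples, -1.14, -1.29 and -1.41 at 2 h, -1.06, -1.43 and -1.18 at 6 h, -1.24, -1.37 and -1.73 at 12 h, and -1.12, -1.07 and -1.03 at 24 h. Untreated samples ran from -1.56 to -0.93 and covered the values of the 2, 6 and 24 h groups, while the 24 h values lay between -1.12 and -1.03. The 12 h difference was -0.23 (SE 0.17), or -0.09 without 12 h replicate 3, and the 24 h difference was 0.14 (SE 0.17). At 24 h each of the 3 samples was above each of the 2 h samples, a difference of 0.21 (SE 0.17), against 2.98% of all probes without overlap between those groups.

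Dnajc3 (NM_022232), the J-domain protein P58IPK, had the smallest unadjusted p of the ER genes at 6 h, taking the brightest probe of each. It read -1.10, -1.30 and -1.27 in untreated samples, -1.25, -1.24 and -1.07 at 2 h, -1.10, -1.62 and -1.26 at 6 h, -1.04, -1.35 and -1.05 at 12 h, and -1.35, -1.34 and -1.11 at 24 h. The 6 h mean was lowered by replicate 2 alone, with a difference of -0.11 (SE 0.14) and overlap with untreated samples. Without 6 h replicate 2 it was 0.04. Hyou1, an Hsp110-like exchange factor of BiP, differed by 0.03, 0.01, 0.06 and -0.01 (SE 0.12), and Dnajb11, the soluble J protein ERdj3, by 0.01, -0.04, -0.08 and 0.05 (SE 0.10). The interval of Dnajb11 at 24 h was -0.17 to 0.26.

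Lectin chaperones and disulfide isomerases likewise did not pass the test at any time. Calr and Canx encode calreticulin and calnexin, which hold glycoproteins during folding. Calr differed by -0.02, -0.06, -0.03 and -0.08 and Canx by -0.02, -0.09, 0.06 and -0.15 (SE 0.13 each). Canx at 24 h read -2.16, -2.02 and -2.11, against -1.98, -1.95 and -1.93 in untreated samples, so the groups did not overlap, with a limma unadjusted p of 0.278. Groups did not overlap for 3.03% of all probes at 24 h. Pdia3, the isomerase that works with these lectins, differed by -0.06, 0.00, -0.18 and 0.03 (SE 0.13). Of the other isomerases, P4hb (PDI itself) differed by -0.06, -0.07, -0.04 and 0.05, Pdia4 by 0.04, 0.02, -0.23 and 0.05 and Pdia6 by 0.00, -0.01, -0.06 and 0.03, with SEs of 0.14, 0.25 and 0.10. Without 12 h replicate 3, the 12 h differences were 0.03 for Pdia4, -0.08 for Pdia3, -0.11 for P4hb, -0.12 for Pdia6 and -0.11 for Calr. Averaged over the 4 times, 0 of these 6 genes had a higher mean than untreated samples, with differences of -0.05 to -0.01 that were each smaller than their SE.

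Among the sensors and effectors of the unfolded protein response, Xbp1 (NM_001004210, chromosome 14), the factor spliced by IRE1, read 0.87, 0.79 and 0.92 in untreated samples, 0.88, 0.85 and 1.03 at 2 h, 0.78, 0.78 and 1.06 at 6 h, 0.85, 0.61 and 1.20 at 12 h, and 1.03, 0.60 and 0.96 at 24 h. Each treated group lay on both sides of the untreated mean of 0.86, with differences of 0.06, 0.01, 0.03 and 0.00 (SE 0.16), and -0.13 at 12 h without 12 h replicate 3. The array gives its total transcript and not the spliced form. Herpud1 (NM_053523), a membrane protein of ER-associated degradation that responds early to ER stress, read 0.55, 0.38 and 0.54 in untreated samples, 0.50, 0.40 and 0.63 at 2 h, 0.52, 0.37 and 0.50 at 6 h, 0.49, 0.29 and 0.35 at 12 h, and 0.58, 0.43 and 0.44 at 24 h. Its differences were 0.02, -0.02, -0.11 and 0.00 (SE 0.10), and its interval at 2 h was -0.20 to 0.25, or 0.871-fold to 1.19-fold.

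Atf6 (NM_001107196), a membrane-bound transcription factor freed by cleavage in the Golgi, had the largest positive difference of the ER genes. It read -1.32, -1.39 and -1.60 in untreated samples, -1.29, -1.34 and -0.85 at 2 h, -1.37, -1.64 and -1.42 at 6 h, -1.20, -1.63 and -1.15 at 12 h, and -1.39, -1.80 and -1.30 at 24 h. At 2 h replicate 3 was high and the other 2 samples lay near untreated ones, giving 0.28 (SE 0.18) and 0.12 without that replicate. Between 24 h and 2 h it differed by -0.34 (SE 0.18), with a limma unadjusted p of 0.0784. The second Atf6 probe went the other way, with differences of -0.30, -0.63, -0.43 and -0.55 (SE 0.27 each) and limma unadjusted p of 0.0374 at 6 h and 0.0436 for the mean of the 4 times (-0.48), none of which passed adjustment (adjusted p = 1 in limma). That second probe was dimmer, with an untreated mean of -4.89 (SD 0.51), against -1.44 (SD 0.15) for the brighter one. The 2 probes of Atf6 thus disagreed, and which of them reflects the gene was not tested.

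The remaining genes of ER-associated degradation were Syvn1 (the ubiquitin ligase HRD1), its partner Sel1l and Edem1, a lectin that sorts misfolded glycoproteins. Sel1l (NM_177933) read -3.98, -3.97 and -3.89 in untreated samples, -4.05, -4.12 and -3.90 at 2 h, -4.01, -4.01 and -3.94 at 6 h, -3.93, -3.89 and -3.64 at 12 h, and -4.25, -4.00 and -4.11 at 24 h. Its 24 h samples lay below all untreated ones (-0.18 (SE 0.11)), whereas 1 of its 12 h samples lay clearly above them (0.12 (SE 0.11), or 0.03 without 12 h replicate 3). The second probe of Sel1l gave -0.19, 0.01, -0.27 and -0.14 (SE 0.26 each). Syvn1 at 2 h read 0.48, 0.42 and 0.46, against 0.62, 0.49 and 0.64 in untreated samples, a difference of -0.13 (SE 0.11) without overlap, which 6.27% of all probes also showed at that time. Its differences at 6, 12 and 24 h were 0.03, 0.03 and -0.03. Edem1 differed by -0.03, 0.00, 0.16 and 0.03 (SE 0.10). The 12 h differences of Syvn1 and Edem1 were -0.08 and 0.09 without 12 h replicate 3.

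**Figure D2:**
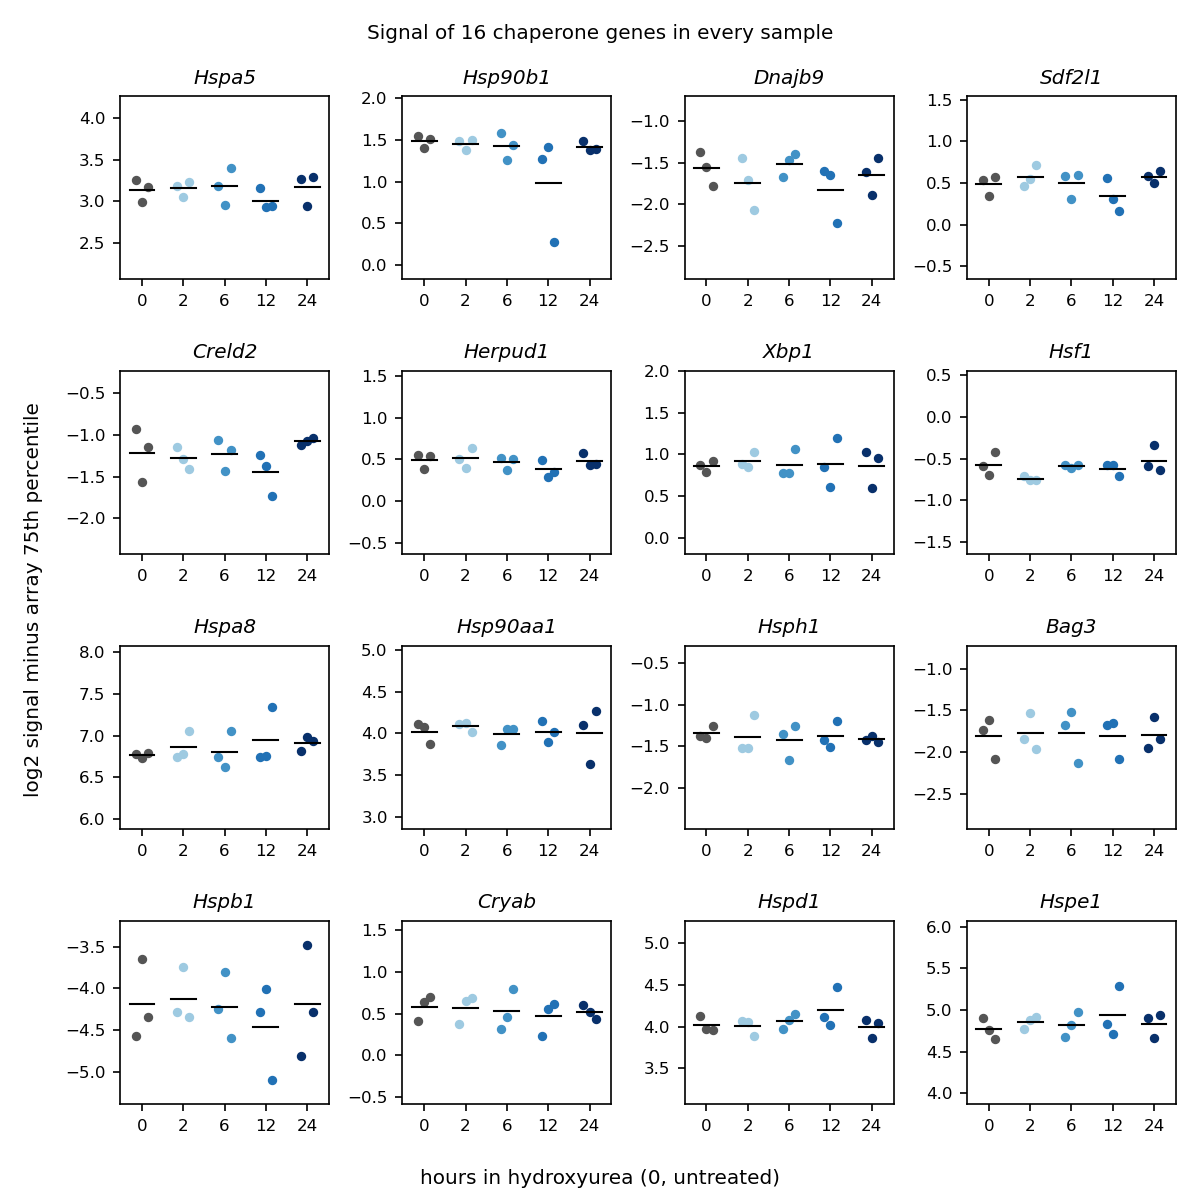
Log2 signal relative to the 75th percentile of the array (vertical axes, each 2.2 log2 units high) in every sample (points) and group means (bars) of 16 genes, by hours in hydroxyurea with untreated samples at 0. Hspa5 lies between 2.93 and 3.40 in all 15 samples, and the single low point of Hsp90b1 is 12 h replicate 3.

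In the cytosol, no gene of the Hsp70 and Hsp90 system passed the test at any time. Hspa8 (NM_024351, chromosome 8) encodes Hsc70, the constitutive Hsp70 that also uncoats clathrin vesicles at synapses. It read 6.78, 6.73 and 6.79 in untreated samples, 6.74, 6.78 and 7.06 at 2 h, 6.74, 6.62 and 7.06 at 6 h, 6.75, 6.76 and 7.34 at 12 h, and 6.82, 6.98 and 6.94 at 24 h. The 24 h samples were all above the untreated ones, by 0.15 (SE 0.16), and in the 2, 6 and 12 h groups replicate 3 was high while the other samples lay between 6.62 and 6.78. The other 3 probes of Hspa8 gave differences of 0.12, 0.09 and 0.15 at 24 h and of -0.08, 0.12 and -0.08 at 2 h, so they had the same sign at 24 h and not at 2 h. At 12 h the brightest probe differed by 0.18 (SE 0.16), or -0.01 without 12 h replicate 3. Its transcript resembles those of other Hsp70 genes, and signal shared between them cannot be told apart.

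Hspa4 (NM_153629) encodes an Hsp110-type exchange factor for Hsp70. Taking the brightest probe of each gene, it had the smallest unadjusted p of its class both at 2 h and at 6 h, and for all 4 times averaged. It read 2.77, 2.80 and 2.78 in untreated samples, 3.05, 3.06 and 3.03 at 2 h, 2.70, 3.05 and 2.96 at 6 h, 2.97, 2.78 and 2.78 at 12 h, and 3.09, 2.49 and 3.06 at 24 h. The 2 h samples, at 3.03 to 3.06, lay above the untreated ones, at 2.77 to 2.80, with a difference of 0.26 (SE 0.15). Its limma unadjusted p was 0.0991 (adjusted p = 1) in a fit that shares the spread of all 5 groups, and the SD at 24 h was 0.34. Over 29 alternative settings the 2 h difference ranged from 0.22 to 0.32. Several of these settings cannot move it, such as leaving out a sample of another treated group. At 6, 12 and 24 h the group overlapped the untreated one, with differences of 0.12, 0.06 and 0.10.

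Stress-inducible partners of Hsp70 were also without a call. Hsph1 (NM_001011901), which encodes HSP110, read -1.38, -1.40 and -1.26 in untreated samples, -1.52, -1.52 and -1.12 at 2 h, -1.35, -1.67 and -1.26 at 6 h, -1.43, -1.51 and -1.20 at 12 h, and -1.42, -1.38 and -1.45 at 24 h. Its differences were -0.04, -0.08, -0.03 and -0.07 (SE 0.14), and the upper limit of its interval was 1.20-fold at 2 h and 1.17-fold at 24 h. Bag3 (NM_001011936), a cochaperone that sends clients of Hsp70 to autophagy, read -1.73, -1.62 and -2.08 in untreated samples, -1.84, -1.53 and -1.96 at 2 h, -1.67, -1.52 and -2.13 at 6 h, -1.68, -1.65 and -2.08 at 12 h, and -1.95, -1.58 and -1.84 at 24 h. Replicate 2 was its highest sample in each group, and its group means differed by 0.04, 0.04, 0.01 and 0.02 from the untreated one (SE 0.19). At 12 h the differences were 0.15 for Bag3 and -0.12 for Hsph1 without 12 h replicate 3.

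Hsp90aa1 (NM_175761), the inducible cytosolic Hsp90, read 4.11, 4.07 and 3.87 in untreated samples, 4.11, 4.12 and 4.02 at 2 h, 3.86, 4.05 and 4.05 at 6 h, 4.15, 3.90 and 4.01 at 12 h, and 4.10, 3.63 and 4.27 at 24 h. Apart from a low 24 h replicate 2, its samples lay between 3.86 and 4.27, and its differences were 0.07, -0.03, 0.00 and -0.02 (SE 0.15). Its other 2 probes gave 0.12 and -0.03 at 2 h, and -0.24 and -0.07 at 24 h. Hsp90ab1, the constitutive form, differed by -0.02, -0.10, -0.01 and 0.02 (SE 0.13), and its second probe by 0.09, 0.01, -0.05 and -0.02. Dnaja1, a J-domain partner of Hsc70, differed by -0.02, 0.09, -0.23 and -0.02 (SE 0.18). Without 12 h replicate 3, its 12 h difference was -0.06.

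Small heat shock proteins hold unfolded proteins until Hsp70 can refold them. Hspb1 (NM_031970), the rat form of HSP27, read -4.57, -3.65 and -4.34 in untreated samples, -4.29, -3.74 and -4.35 at 2 h, -4.25, -3.81 and -4.60 at 6 h, -4.29, -4.01 and -5.10 at 12 h, and -4.81, -3.48 and -4.28 at 24 h. It had the widest spread of the members, with replicate 2 its highest sample in each group. Its differences were 0.06, -0.04, -0.28 and -0.01 with an SE of 0.36, and the interval at 24 h ran from -0.78 to 0.77, that is 0.581-fold to 1.71-fold. Without 12 h replicate 3, the 12 h difference was 0.04. Cryab (NM_012935), alpha B-crystallin, a chaperone of astrocytes and oligodendrocytes in the brain, read 0.41, 0.64 and 0.70 in untreated samples, 0.37, 0.65 and 0.69 at 2 h, 0.32, 0.46 and 0.80 at 6 h, 0.23, 0.56 and 0.62 at 12 h, and 0.60, 0.52 and 0.43 at 24 h. All its groups overlapped, with differences of -0.01, -0.06, -0.11 and -0.07 (SE 0.15), beside the higher summed signal of astrocyte markers given above. Hspb8, the small heat shock partner of BAG3, differed by -0.05, 0.04, -0.01 and 0.17 (SE 0.19), and by 0.16 at 12 h without 12 h replicate 3. For Cryab that value was -0.19.

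The mitochondrial chaperonins Hspd1 (NM_022229) and Hspe1 (NM_012966) encode Hsp60 and Hsp10, which form one folding chamber. Hspd1 read 4.13, 3.97 and 3.96 in untreated samples, 4.07, 4.06 and 3.89 at 2 h, 3.97, 4.08 and 4.15 at 6 h, 4.11, 4.02 and 4.48 at 12 h, and 4.08, 3.86 and 4.04 at 24 h. Hspe1 read 4.90, 4.76 and 4.65 in untreated samples, 4.77, 4.88 and 4.91 at 2 h, 4.67, 4.82 and 4.98 at 6 h, 4.83, 4.71 and 5.29 at 12 h, and 4.90, 4.66 and 4.94 at 24 h. Both were highest in 12 h replicate 3, and their 12 h differences of 0.18 (SE 0.13) and 0.17 (SE 0.15) came to 0.05 and 0.00 without that sample. At the other times Hspd1 differed by -0.01, 0.05 and -0.03, and Hspe1 by 0.08, 0.05 and 0.06. The second probe of Hspe1 gave 0.06, 0.07, 0.11 and 0.09 (SE 0.12 each).

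Hsf1 (NM_024393), the transcription factor of the heat shock response, read -0.59, -0.70 and -0.42 in untreated samples, -0.71, -0.75 and -0.75 at 2 h, -0.57, -0.61 and -0.58 at 6 h, -0.58, -0.57 and -0.71 at 12 h, and -0.59, -0.34 and -0.64 at 24 h. Its 2 h samples lay below all untreated ones, by -0.17 (SE 0.11) with a limma unadjusted p of 0.147. They also lay below all 24 h samples, and the difference of 24 h minus 2 h was 0.21 (SE 0.11) with a limma unadjusted p of 0.0661. HSF1 is mainly controlled after translation, which an array of transcripts does not measure.

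**Figure D3:**
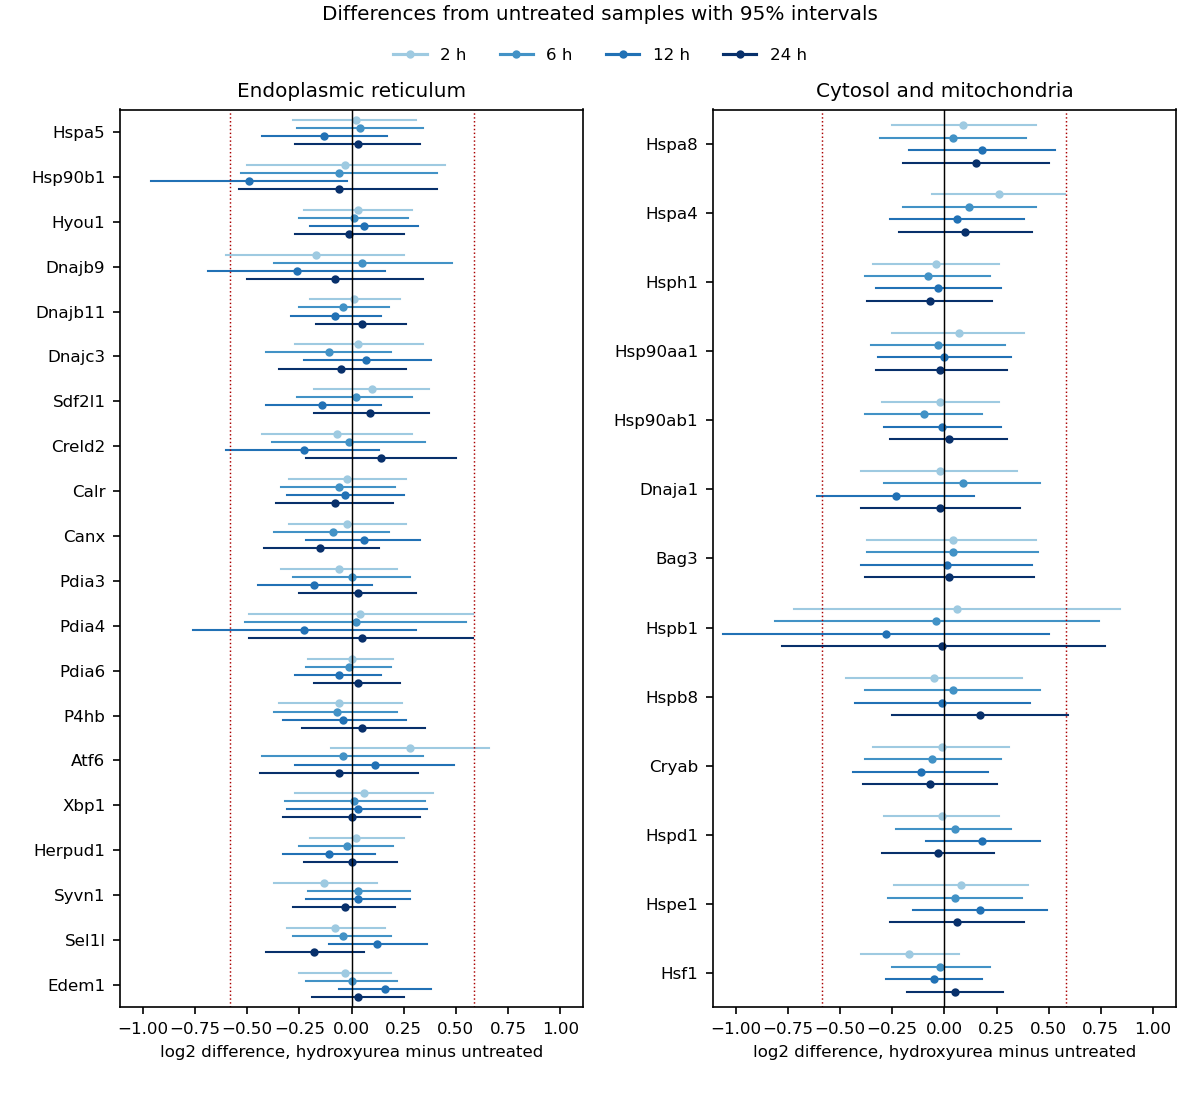
Log2 difference of each tested gene from untreated samples (point) with its 95% interval from limma (line) at 2, 6, 12 and 24 h, light to dark; dotted lines mark 1.5-fold either way. The intervals of Hspb1, with an SE of 0.36, are the widest, and at 12 h that of Hsp90b1 runs from -0.96 to -0.02.

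Counting the genes whose samples did not overlap with untreated ones gives 3 at 2 h (Hspa4 higher, Hsf1 and Syvn1 lower), 0 at 6 h, 0 at 12 h and 3 at 24 h (Hspa8 higher, Canx and Sel1l lower), of 33 in each case. These counts are 9.09%, 0%, 0% and 9.09% of the members at 2, 6, 12 and 24 h, against 6.27%, 3.87%, 5.15% and 3.03% of all probes. For the 4 times averaged, 0 members and 0.0639% of all probes were without overlap. No member was in that group at more than 1 time.

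Genes with and without the promoter elements were then set side by side. The 10 ER genes with an element of either form (Calr, Canx, Creld2, Dnajb11, Dnajc3, Herpud1, Hsp90b1, Hspa5, Hyou1 and Xbp1) had median differences of 0.01, -0.03, -0.06 and -0.01 at 2, 6, 12 and 24 h. The 7 ER genes whose windows held neither (Dnajb9, Edem1, P4hb, Pdia4, Sdf2l1, Sel1l and Syvn1) had medians of -0.06, 0.02, -0.04 and 0.03. The 5 genes with a heat shock element (Dnaja1, Hspa8, Hspd1, Hspe1 and Hsph1) had medians of -0.01, 0.05, 0.17 and -0.02, and the 5 tested genes with a window and none (Bag3, Hsp90ab1, Hspa4, Hspb1 and Hspb8) had 0.04, 0.04, -0.01 and 0.02. The 12 h median of 0.17 rests on Hspa8, Hspd1 and Hspe1, each highest in 12 h replicate 3, and without that sample they differed by -0.01, 0.05 and 0.00. No match in a window says only that these letters are not there.

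**Figure D4:**
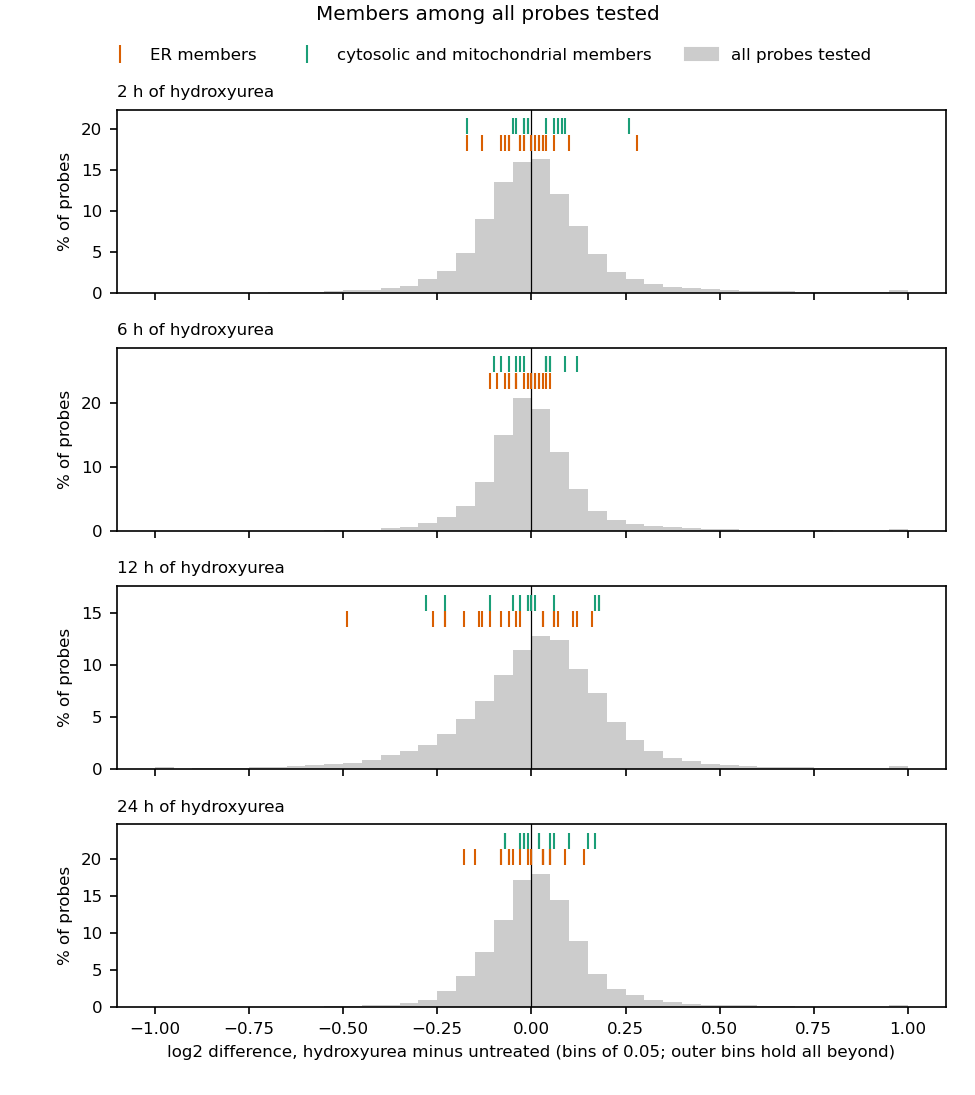
Distribution of log2 differences from untreated samples over the 20349 probes tested (grey bars, percent of probes per bin of 0.05) with the 20 ER genes (orange ticks) and the 13 cytosolic or mitochondrial genes (green ticks), at each time. The ticks run from -0.49 for Hsp90b1 at 12 h to 0.28 for Atf6 at 2 h.

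No other gene of the same pathways passed adjustment. Of 70 further ER folding and degradation genes, 61 had a probe and 59 were tested. Of the 59, 31, 29, 39 and 37 had a higher mean at 2, 6, 12 and 24 h, against 49.9%, 47.6%, 55.5% and 54.3% of all probes. Their medians were 0.01, 0.00, 0.05 and 0.02, and 0 passed adjustment or an unadjusted p under 0.05 in limma. Eif2ak3, the sensor PERK, differed by -0.06, 0.02, 0.15 and -0.08 (SE 0.13 each), and Ero1a, the oxidase that recharges the isomerases, by -0.03, -0.02, 0.17 and 0.02 (SE 0.10 each). The largest differences at 12 h were those of the prolyl isomerase Fkbp14 at 0.45 (SE 0.23) and of Mbtps1, the Golgi protease that cleaves ATF6, at -0.41 (SE 0.21). Values without 12 h replicate 3 are not given for these further genes.

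Of 73 further cytosolic and mitochondrial chaperone genes, 62 had a probe and 58 were tested. They had 26, 28, 33 and 35 higher means, against 49.9%, 47.6%, 55.5% and 54.3% of all probes, and medians of -0.01, 0.00, 0.05 and 0.02. The inducible Hsp70 genes Hspa1a and Hspa1b and the mitochondrial Hsp70 gene Hspa9 had no matched probe, so the most inducible cytosolic chaperone is not analysed here. Of the 58, 0 passed adjustment and 1 had an unadjusted p under 0.05 in limma, the J-protein gene Dnajb5 at 12 h (-0.31, SE 0.14). Over all probes, 2.4% had such a p at 12 h. Stip1, which links Hsp70 to Hsp90, differed by -0.13, 0.00, -0.23 and 0.06 (SE 0.18 each). For Dnajb5 and Stip1 too, values without 12 h replicate 3 are not given.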

How the data were processed

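RNA of 15 samples was measured on 16 Agilent 1-colour arrays on 2 slides, since untreated replicate 1 was hybridised on each slide; its 2 arrays were averaged and counted as 1 sample. The deposited scanner output is intensity per spot, extracted, per the file headers, with Agilent Feature Extraction 11.5.1.1 (protocol GE1_1105_Oct12), with background subtracted and no scaling between arrays. The headers name build rn4, and no coordinates of the array were used. The series values the authors deposited are a score per array, which was checked to be linear in the log of the processed intensity. They matched their own scanner file at a correlation of 0.99999582 to 0.99999588, except that 24 h replicates 1 and 3 matched each other's file; they were an alternative, multiplied by 4.2, the mean SD of log2 signal.

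Control spots (4259 of 62976) and outlier-flagged spots were dropped. The value was log2 of the processed intensity minus the 75th percentile of the array, averaged over spots of a probe. Accessions were matched to RefSeq symbols (18758 of 30367 probes, 15715 symbols). Testing required a probe to be well above background in all arrays of 1 group or more. A gene is represented by its brightest probe. Groups were compared in 1 fit with limma 3.58.1 in R 4.3.3 (two-sided, with 10 residual degrees of freedom and 3.6 prior ones), adjusted by Benjamini-Hochberg over 20349 probes, with a threshold of 0.05. The procedure was tested on simulated data with changes added to the 24 h samples. At the threshold it recovered 16% of log2 changes of 0.5, 64% of those of 1 and of -1, and 96% of those of 2. Only a small share of the simulated probes carried a change, and their noise was drawn independently for each sample. Recovery depends on both, so these percentages are not the power for the members in these data. Normexp correction, an alternative, used median signals with an offset of 50, as the files hold no mean signal. All 36 genes are named. A fixed choice of them, and the gene with the smallest p of its class in each comparison, have values in every sample. For each class and comparison with untreated samples, 2 genes with a higher and 2 with a lower mean were followed through the alternatives. In each direction these were the genes with the smallest unadjusted p in limma. The members and lists were chosen with earlier results of these data known. Promoter windows are RefSeq's for GRCr8 and were searched by exact match. No protein sequences were used here.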

Additional observations from a re-analysis of the deposited data

Results flagged for a closer look

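Creld2 and Sel1l moved in opposite directions at 12 and 24 h, in the sense that the sign of the mean difference turned with every sample of one time on the other side of the untreated mean. The mean log2 difference of Creld2 was -0.23 at 12 h and 0.14 at 24 h, and that of Sel1l was 0.12 at 12 h and -0.18 at 24 h. The difference between the times was not tested as such for either gene. Limma's F test among the 4 times gave unadjusted p of 0.22 for Creld2 and 0.0912 for Sel1l, with adjusted p of 1 for both. Without 12 h replicate 3 the 12 h values came to -0.09 for Creld2 and 0.03 for Sel1l. The second probe of Sel1l gave -0.27 at 12 h and -0.14 at 24 h, without a change of sign. Groups of 3 samples were not tested for single outlying samples.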

How the results depend on the processing

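Over 29 settings per result, the counts of probes past the threshold matched in 375 of 377 comparisons, 275 of 290 class medians moved by less than 1 SD between samples (0.08 for ER genes, 0.04 for the others), and 1130 of 1160 followed gene differences kept their sign. Part of this agreement was fixed in advance. Leaving out a sample of another treated group, the replicate blocks and the probe filters cannot move a difference between a single time and untreated samples. A difference that came to 0 was counted as keeping its sign. The ER medians ranged from -0.12 to 0.05 over all settings and times. The counts that moved were 4 probes at 12 h within slide 1, and 1 probe for the mean of the 4 times with the replicate block and 24 h replicates 1 and 3 exchanged, a setting chosen after seeing the data; the replicate block as labelled called 0 probes. Pairing required each of 30 same-numbered pairs to correlate over 0.1, and 19 did as labelled (-0.424 to 0.408, median 0.135, against -0.0826 for other pairs; 7 of 15 samples correlated best with their own number). After the exchange, itself chosen after seeing the data, 24 did (-0.00192 to 0.409, median 0.19, against -0.104, and 13 of 15). Values were centred within each group first, so positive same-numbered pairs bring negative other pairs by construction. Whether numbers mark something shared was not tested beyond this, and the labels do not state it. For Hspb1 at 24 h the SE was 0.21 with the replicate block and 0.18 with the exchange, against 0.36 without a block. For Hspa5 at 6 h these SEs were 0.11, 0.1 and 0.14, while for Hsp90b1 at 12 h the SE was 0.22 in each fit. The block thus narrowed the intervals of some genes and not of others. The median of the cytosolic and mitochondrial genes moved to -0.01 (6 h) and -0.03 (24 h) with quantile normalization, -0.01 (6 h) with the deposited scores, 0.04 (12 h) with the slide as a block, -0.06 (6 h) within slide 1, 0.05 (2 h) and 0.12 (6 h) within slide 2, and 0.04 (2 h) with array weights. Leaving out each sample in turn gave medians of -0.04 to 0.05 at 2 h, -0.02 to 0.05 at 6 h and -0.07 to 0.05 at 12 h.

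Signs turned for Hspa8 at 2 h with quantile normalization and within slide 1 (-0.02 each), Sel1l at 24 h with normexp (0.03), and Edem1 over the 4 times with the deposited scores (-0.03) and within slide 1 (-0.01). Within slide 1 they also turned at 12 h for Hspe1 (-0.06) and Edem1 (-0.02), at 6 h for Dnaja1 (-0.08) and Hspa5 (-0.06), and over the 4 times for Hsf1 (0.03). Within slide 2 they turned for Hsph1 at 2 h (0.26) and 6 h (0.12), Cryab at 24 h (0.02) and over the 4 times (0.12), and at 24 h for Creld2 (-0.01) and Sdf2l1 (-0.03). Array weights turned Creld2 at 12 h (0.01). Leaving out each sample gave -0.51 to 0.04 for Hspb1 at 12 h, -0.17 to 0.03 and -0.16 to 0.04 for Hsph1 at 2 and 6 h, -0.01 to 0.15 for Hspa8 at 2 h, -0.22 to 0.04 for Dnajc3, -0.07 to 0.15 for Hspa5 and -0.01 to 0.07 for Syvn1 at 6 h, -0.04 to 0.28 for Creld2 at 24 h, and over the 4 times -0.11 to 0.03 for Hsf1, -0.01 to 0.13 for Atf6 and -0.01 to 0.07 for Edem1. The cause was not tested. Fits within a slide, and those that leave 1 sample in a group, assume that it varies like the other groups. With the slide as a block, the first array of untreated replicate 1 was used, because a random sample effect could not be fitted.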

Other observations

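For 32 of the 33 tested genes, the SD within groups was larger than the SD of the 5 group means, and for 1 gene, Sel1l, they were equal at 0.11. Means of 3 samples vary less than single samples, so this outcome was largely fixed in advance. It was not counted over all probes and says nothing about the drug. Sel1l was singled out after its values were seen, as were the genes that follow. Bag3 and Hspb1 were highest in replicate 2 in 5 of 5 groups, treated and untreated, and Hspa5, Herpud1 and Xbp1 were lowest in replicate 2 in 5 of 5 groups. The median deviation of the 20 ER genes from their mean over all samples was lowest in replicate 2 in each group too, at -0.05, -0.10, -0.07 and -0.01 at 2, 6, 12 and 24 h and -0.08 in untreated samples. Hspb1 read -3.74, -3.81, -4.01 and -3.48 in replicate 2 at 2, 6, 12 and 24 h and -3.65 in untreated replicate 2, against -5.10 to -4.25 in the other treated samples and -4.57 and -4.34 in the other untreated ones. Of 20295 probes with a value in every sample, 2.53% were highest and 1.38% were lowest in replicate 2 in all 5 groups.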
